A study of Mus musculus with 2 samples.

Results

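Conventional type 1 dendritic cells (cDC1) of the mouse were described from 2 droplet-based single-cell RNA libraries, 1 of KO cells and 1 of WT cells. The cells were selected on measured values. A barcode was taken when it passed the filters (at least 200 genes, at most 20% mitochondrial and at most 10% haemoglobin UMIs) and carried at least 1 unique molecular identifier (UMI, a tagged RNA molecule) of Xcr1 or Clec9a. It also had to carry at least 2 UMIs of Flt3, Wdfy4 and Naaa together, none of Siglech, Cd3e or Cd79a, and at most 3 of Ccr7, Fscn1 and Ccl22 together. This gave 99 KO and 283 WT cDC1, 382 of the 27478 barcodes that passed the filters (10812 KO and 16666 WT) and of 49230 barcodes in all (27033 KO and 22197 WT).

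KO mice carried floxed alleles of Bicd2, which encodes an adaptor between cargo and the dynein motor, and Cre recombinase under the albumin promoter, which is active in hepatocytes (Alb-Cre Bicd2fl/fl). WT mice carried the same floxed alleles without the Cre (Alb-WT Bicd2fl/fl). Both were given S-100, a liver antigen preparation, in a model of autoimmune hepatitis, 2.5 mg into the peritoneum in each of 3 weekly injections. The series text describes Percoll-enriched, live-sorted and pooled immune cells of the liver, whereas the samples are labelled as peritoneal cells and tagged HFD under treatment. The number of pooled animals and their age are not given in the sources used here. With 1 library per genotype no difference below has a replicate check, no test across samples was possible, and every interval is a 95% interval of counting error alone. The comparison asks how cDC1 differ when hepatocytes lack Bicd2.

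cDC1 are the dendritic cell subset that takes up material of dying cells and presents it on MHC class I to CD8 T cells, which is called cross-presentation. They depend on the transcription factors IRF8 and BATF3, sense dead cells with CLEC9A, and meet T cells and NK cells through the chemokine receptor XCR1. Interferon-gamma from T and NK cells acts on them through its receptor. The genes then induced encode antigen presentation proteins, GTPases of host defence and the chemokines CXCL9 and CXCL10, which attract lymphocytes that carry CXCR3.

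The deposited matrices held 63869430 UMIs in the KO library and 81159013 in the WT library, with haemoglobin at 38.7% and 15.4% of them. KO cDC1 had a median of 7647 UMIs and 2838 genes per cell, and WT cDC1 had 8710 UMIs and 3072 genes. Summed over the members this was 897108 UMIs in KO and 2788664 UMIs in WT, and levels are given below as UMIs per 1000000 UMIs of the cells summed (CPM). The libraries shared 177 barcode sequences, of which none was a cDC1 in both. Bicd2 itself, whose deletion is aimed at hepatocytes and is not measured by these immune cells, was counted 24 times in KO cDC1 and 74 times in WT cDC1, or 26.8 CPM in KO and 26.5 CPM in WT.

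The rule's marker genes were present in both libraries, but not equally in all members. Irf8, which the rule did not use, stood at 1668 CPM in KO cDC1 and 1534 CPM in WT cDC1, against 237 and 248 CPM in all other KO and WT barcodes. The sum of Flt3, Wdfy4 and Naaa per cell had a median of 33 UMIs in KO and 17 UMIs in WT. At the low end, 20 KO and 103 WT members had 2 to 9 such UMIs, and there Irf8 stood at 223 CPM in KO and 529.9 CPM in WT. The integrin gene Itgae was at 8.91 and 3.89 CPM in KO and WT there, below the level of all members. Sirpa, a marker of type 2 dendritic cells (cDC2), was at 464 CPM in KO and 240 CPM in WT there. In all members it was at 72.5 CPM in KO and 109 CPM in WT. The cDC2 markers Cd209a, Clec10a and Mgl2 were also higher there than in all members, in both libraries. The name cDC1 is least certain for these low members. At the edge of the rule, 4 KO and 24 WT members had exactly 2 UMIs of Flt3, Wdfy4 and Naaa, while 10 KO and 36 WT barcodes had exactly 1 and were not members. With Xcr1 or Clec9a, 19 KO and 89 WT members had exactly 1 UMI. No member had exactly 3 UMIs of Ccr7, Fscn1 and Ccl22, while 1 KO and 3 WT barcodes had 4 or more and were left out.

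Markers of other cells differed between the members of the libraries. The 10 neutrophil markers summed to 495 CPM in KO cDC1, with Ltf and Camp at 0, and to 11893 CPM in WT cDC1. The early progenitor markers stood at 544 CPM in KO, with 7 of 10 above 0, and 1774 CPM in WT, with 10 of 10. The monocyte markers, all 10 above 0 in both, stood at 2372 CPM in KO and 4199 CPM in WT. Erythroid markers went the other way, with 9 of 9 above 0 in both and 12291 CPM in KO against 5467 CPM in WT. A doublet caller marked none of the 99 KO members and 43 of the 283 WT members (15.2%), while it marked 11.6% of the 17675 KO barcodes and 15.3% of the 20167 WT barcodes it was run on. In view of these markers, results are also given for a core of 77 KO and 165 WT members, chosen after the data were seen, with at least 10 UMIs of Flt3, Wdfy4 and Naaa and at most 1% of UMIs from the neutrophil and early progenitor lists. In the core the neutrophil markers stood at 304 CPM in KO and 1824 CPM in WT. Values with the neutrophil and progenitor limit alone, with doublets left out and with free RNA subtracted were computed too.

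cDC1 made up 0.916% of KO barcodes (99 of 10812, exact binomial interval 0.745% to 1.11%) and 1.7% of WT barcodes (283 of 16666, 1.51% to 1.91%). The log2 ratio KO over WT of these shares was -0.89 (interval -1.22 to -0.56). This share depended on how members and barcodes were counted, and its direction turned under 1 setting. With barcodes over 1% haemoglobin left out of members and denominator, the log2 ratio was 1.64, with 77 KO and 246 WT members left. Haemoglobin in barcodes that were not cDC1 had a first quartile of 1.39% in KO and a median of 0.713% in WT. The limit thus took most barcodes out of the KO denominator and fewer than most out of the WT denominator. In the core the cDC1 share was 0.712% in KO and 0.99% in WT, a log2 ratio of -0.48 (interval -0.86 to -0.09). With every barcode thinned to 1000 UMIs before the rule was applied, it was 0.835% in KO (71 of 8498) and 0.891% in WT (127 of 14259), a log2 ratio of -0.092 (interval -0.51 to 0.32). At that depth no difference in share was detectable. Of the cells taken as cDC1, cDC2, migratory or plasmacytoid dendritic cells by marker rules, cDC1 were 32.9% in KO (99 of 301) and 50.2% in WT (283 of 564).

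Genes that define cDC1 were present in both libraries and mostly higher in KO cells. Of 20 identity genes that the rule did not use, 15 were higher and 5 lower in KO, with a median log2 ratio of 0.52, against -0.07 over all 9958 genes with at least 20 UMIs in the libraries together. Each log2 ratio sets KO above WT, after 1 CPM was added to both. In the core the median was 0.28. The 5 genes the rule used had a median of 0.41 in all members and 0.19 in the core. Members were selected on these genes, and the core again on Flt3, Wdfy4 and Naaa, so their values are no separate result. Of the identity genes, 4 were at least 2-fold higher in KO and 2 were at least 2-fold lower, where 2.78% and 6.98% of all 9958 genes were that far in those directions. In the core these shares were 2.4% higher and 5.5% lower, of 9115 genes. Counted by direction alone, 55.8% of all 9958 genes were lower in KO and 44.2% higher. In the core 55.2% of the 9115 genes were lower and 44.8% higher.

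Itgae, which encodes the integrin chain CD103 that binds E-cadherin, had 247 UMIs in KO cDC1 and 246 UMIs in WT cDC1, or 275 CPM in KO and 88.2 CPM in WT. The KO level was 3.12 times the WT level (interval 2.61 to 3.74), the libraries' intervals did not overlap, and the log2 ratio was 1.63 in all members and 1.33 in the core. A UMI of Itgae was seen in 25 of 97 KO cDC1 and 20 of 279 WT cDC1 thinned to 1000 UMIs (25.8% and 7.17%), and in 55.6% and 27.6% without thinning. In B cells, which served as the background for free RNA, the thinned shares were 0.233% in KO and 0.387% in WT. Outside cDC1 the gene was not higher in KO, at 12.4 CPM in KO and 15.7 CPM in WT in all other barcodes.

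Pianp had 80.3 CPM in KO cDC1 and 22.6 CPM in WT cDC1 (log2 1.78, core 1.61), and in all other barcodes 2.6 CPM in KO and 0.664 CPM in WT. The sulfotransferase gene Sult1a1 had 51.3 CPM in KO cDC1 and 19.4 CPM in WT cDC1 (log2 1.36, core 1.03), and in all other barcodes 1.74 CPM in KO and 1.07 CPM in WT. Tlr3, the sensor of double-stranded RNA, had 201 CPM in KO cDC1 and 119.8 CPM in WT cDC1, and Tlr11, a sensor of profilin of protozoa, had 97 CPM in KO and 52.4 CPM in WT. Both were less than 2-fold apart. Irf8 and Batf3 differed less, with log2 ratios of 0.12 and 0.35 in all members and -0.08 and 0.06 in the core. Against the direction of the list, Cd8a, which marks cDC1 of lymphoid organs in mice, had 8.92 CPM in KO cDC1 and 22.2 CPM in WT cDC1, and the receptor gene Gpr33 had 7.8 CPM in KO and 27.3 CPM in WT. These rest on few molecules, 8 and 62 UMIs of Cd8a and 7 and 76 UMIs of Gpr33 in KO and WT. Id2, with 1019 UMIs in KO and 3763 UMIs in WT, was also lower in KO, at 1136 CPM in KO and 1349 CPM in WT. Ly75 was lower as well, at 59.1 CPM in KO and 88.9 CPM in WT. In the core Id2 had 1209 CPM in KO and 1803 CPM in WT, and Ly75 67.2 CPM in KO and 114 CPM in WT. Both were less than 2-fold apart. Ifi205 was nearly equal, at 348 CPM in KO and 351 CPM in WT.

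**Figure D1:**
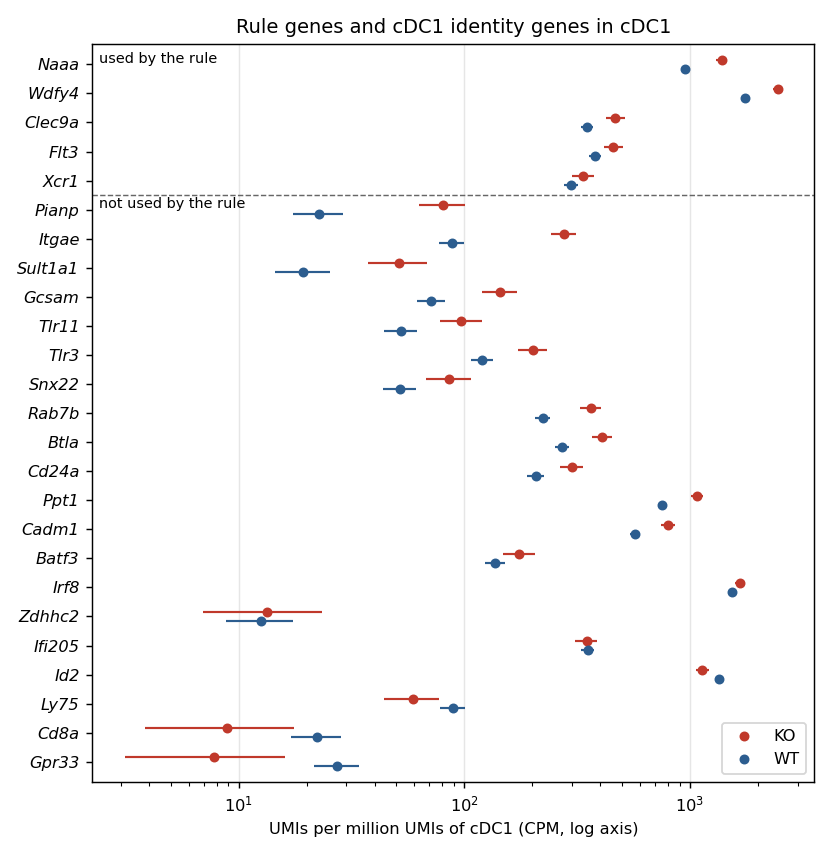
Levels of the 5 genes used by the rule and of 20 other cDC1 identity genes, in CPM on a log axis, for KO (red) and WT (blue) cDC1; points are sums over all members of 1 library and lines are exact Poisson intervals. Itgae, at 275 CPM in KO and 88.2 CPM in WT, and Pianp stand far apart, while Cd8a and Gpr33 at the bottom lie lower in KO.

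Interferon-gamma response genes were lower in KO cDC1 than in WT cDC1. Of 22 listed genes, 21 reached 20 UMIs in sum (Ido1 had none in either library), and 20 of these were lower and 1 higher in KO. The median log2 ratio was -1.99, and 18 of the 21 genes were at least 2-fold lower in KO, where 6.98% of all genes were. In the core the median was -2.39, with 19 of 20 genes at least 2-fold lower. Summed over the list, KO cDC1 had 1275 CPM and WT cDC1 had 3383 CPM.

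Cxcl9, which encodes a chemokine ligand of CXCR3, had 70 UMIs in KO cDC1 and 1442 UMIs in WT cDC1, or 78 CPM in KO and 517 CPM in WT. The KO level was 0.151 times the WT level (interval 0.117 to 0.192), and the gene was seen in 6.06% of KO cDC1 and 33.9% of WT cDC1. After thinning, 4 of 97 KO cDC1 and 49 of 279 WT cDC1 carried it (4.12% and 17.6%), against 0 of 860 and 7 of 517 B cells. Cxcl10, the related chemokine gene, had 0 UMIs in KO cDC1 and 261 UMIs in WT cDC1, which is at least 28-fold lower in KO when 3 UMIs are allowed for the count of 0. One WT cell held 52.5% of the WT molecules of Cxcl10, and the thinned share of WT cDC1 with it (3.23%) was near that of WT B cells (2.51%). The GTPase genes of host defence were low in KO cells as well. Iigp1 had 8.92 CPM in KO cDC1 and 176 CPM in WT cDC1, Gbp5 had 5.57 CPM in KO and 76.7 CPM in WT and Gbp2 had 32.3 CPM in KO and 133 CPM in WT. The log2 ratio of Gbp5 was -3.56, and it was -0.58 after thinning, where 3 KO and 13 WT UMIs were left. In all of these the intervals of the libraries did not overlap, while Gbp6, with 5 and 18 UMIs in KO and WT, and Tgtp1, with 2 and 30 UMIs, had overlapping intervals.

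Regulators of the response and surface protein genes were lower as well. Irf1, a transcription factor of the interferon response, had 66.9 CPM in KO cDC1 and 182 CPM in WT cDC1 (0.368 times the WT level (interval 0.277 to 0.481)). Socs1, a feedback inhibitor of the pathway, had 11 UMIs in KO cDC1 and 144 UMIs in WT cDC1 (12.3 CPM in KO and 51.6 CPM in WT). Cd274, which encodes the inhibitory ligand PD-L1, had 6 UMIs in KO cDC1 and 145 UMIs in WT cDC1 (6.69 CPM in KO and 52 CPM in WT). Ly6a, a surface protein gene of the Ly6 family, had 116 CPM in KO cDC1 and 559 CPM in WT cDC1, and Serpina3g, an intracellular serpin gene, had 22.3 CPM in KO and 156 CPM in WT. The exception was Ciita, the activator of MHC class II genes, with 608 CPM in KO cDC1 and 499 CPM in WT cDC1 and a log2 ratio of 0.28 in all members and 0.02 in the core.

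The receptor did not follow the response. Ifngr1, the ligand-binding chain, had 496 UMIs in KO cDC1 and 796 UMIs in WT cDC1, or 553 CPM in KO and 285 CPM in WT, and was higher in KO at 1.94 times the WT level (interval 1.73 to 2.17), with a log2 ratio of 0.87 in the core. Ifngr2, the signalling chain, had 105 CPM in KO cDC1 and 97.5 CPM in WT cDC1, and its ratio interval included equality. Among all other barcodes Ifngr1 had 425 CPM in KO and 301 CPM in WT.

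Per cell, the list took a median of 0.105% of UMIs in KO cDC1 (lowest 0%, highest 1.72%) and 0.273% in WT cDC1 (lowest 0%, highest 2.41%). The ranges of the cells overlapped. More than 0.2% of UMIs, a limit chosen after the data were seen, came from the list in 13 of 99 KO cells and 181 of 283 WT cells, and in the core in 8 of 77 KO cells and 109 of 165 WT cells. One KO cell gave 9.09% of the KO molecules of the list. Of the members with 2 to 9 rule UMIs, 5 of 20 KO cells (25%) and 64 of 103 WT cells (62.1%) were above that limit, and the median log2 ratio of the list was -1.18 among them.

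**Figure D2:**
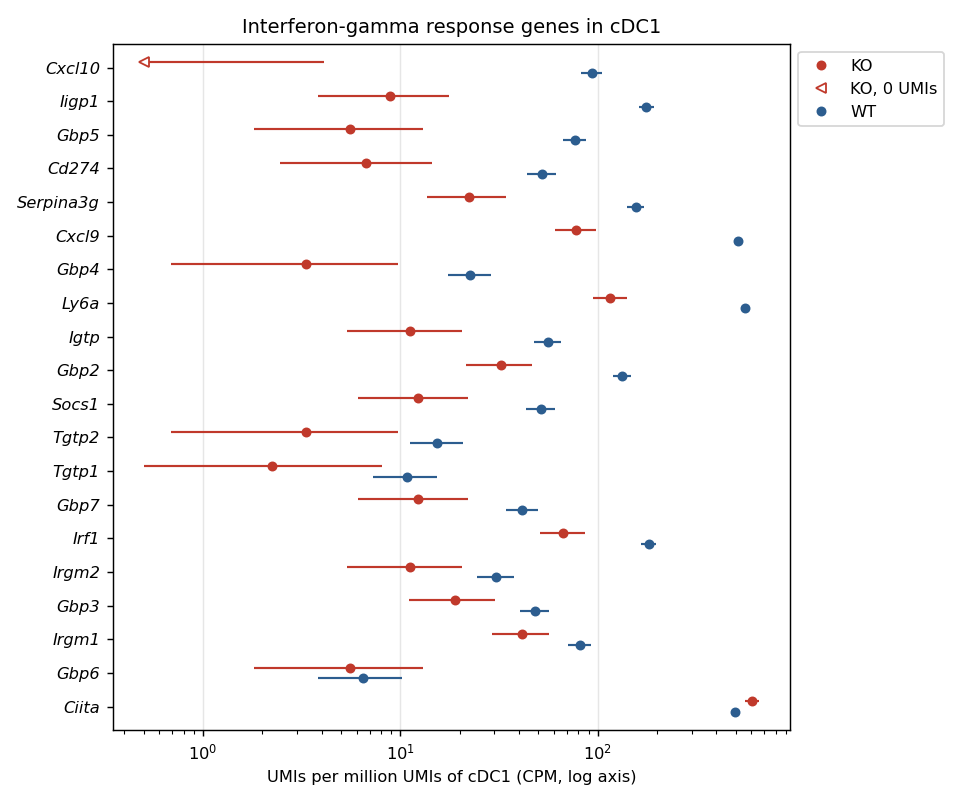
Levels of the interferon-gamma response genes in cDC1, in CPM on a log axis, for KO (red) and WT (blue), with exact Poisson intervals; the open triangle marks Cxcl10 with 0 UMIs in KO, drawn at the left edge with the upper bound of its interval. KO points lie left of WT points for all genes drawn except Ciita, and for Gbp6 and Tgtp1 the intervals overlap.

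**Figure D3:**
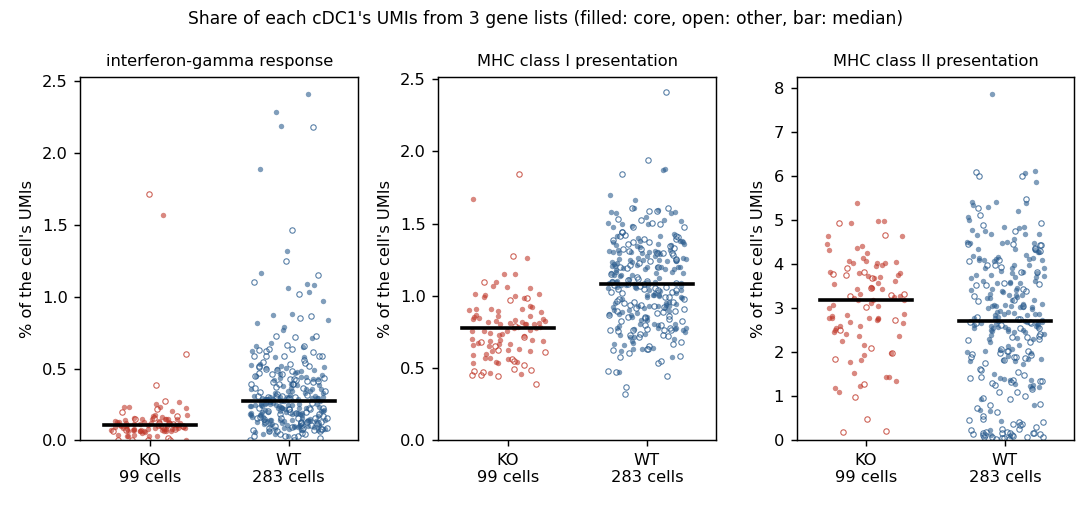
Share of each cell's UMIs from 3 gene lists, in percent, for KO (left, 99 cells) and WT (right, 283 cells) cDC1; filled points are core members, open points the other members, and bars the medians, with horizontal scatter only to separate points. For the interferon-gamma response most KO cells lie below the WT median of 0.273%, whereas the MHC class II shares of the libraries overlap.

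Promoters are shown for 4 of the listed genes with low ratios, Gbp5, Cd274, Serpina3g and Cxcl9, to give the sequence around their start sites. Each stretch runs 5′ to 3′ on the gene's strand, over 250 bases before and 50 bases after the start site, in build GRCm38.p6, and capitals mark matches to 2 motifs on either strand. The first is the gamma-activated site (TTCNNNGAA), and the second is the core of the interferon-stimulated response element (TTTC, any 2 bases, then TTTC). Gbp5 lies at chr3:142496684-142496983 on the plus strand, Cd274 at chr19:29367188-29367487 (plus), Serpina3g at chr12:104235897-104236196 (plus) and Cxcl9 at chr5:92328030-92328329 (minus).
Gbp5: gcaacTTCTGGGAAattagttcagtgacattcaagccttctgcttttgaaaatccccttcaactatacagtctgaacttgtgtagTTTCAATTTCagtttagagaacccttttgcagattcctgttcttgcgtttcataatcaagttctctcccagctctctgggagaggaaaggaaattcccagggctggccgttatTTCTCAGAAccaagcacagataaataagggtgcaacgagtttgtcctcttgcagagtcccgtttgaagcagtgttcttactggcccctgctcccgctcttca
Cd274: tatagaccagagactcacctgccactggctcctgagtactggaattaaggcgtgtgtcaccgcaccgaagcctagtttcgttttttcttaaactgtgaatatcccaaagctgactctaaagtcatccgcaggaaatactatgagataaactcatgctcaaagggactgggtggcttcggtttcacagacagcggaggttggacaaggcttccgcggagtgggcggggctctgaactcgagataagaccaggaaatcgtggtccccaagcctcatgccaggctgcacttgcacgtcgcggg
Serpina3g: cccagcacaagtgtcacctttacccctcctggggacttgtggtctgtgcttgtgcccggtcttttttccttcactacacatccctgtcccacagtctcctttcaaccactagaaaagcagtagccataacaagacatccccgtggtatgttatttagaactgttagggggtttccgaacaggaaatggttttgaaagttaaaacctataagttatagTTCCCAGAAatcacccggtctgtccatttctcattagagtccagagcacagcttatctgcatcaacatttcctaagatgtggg
Cxcl9: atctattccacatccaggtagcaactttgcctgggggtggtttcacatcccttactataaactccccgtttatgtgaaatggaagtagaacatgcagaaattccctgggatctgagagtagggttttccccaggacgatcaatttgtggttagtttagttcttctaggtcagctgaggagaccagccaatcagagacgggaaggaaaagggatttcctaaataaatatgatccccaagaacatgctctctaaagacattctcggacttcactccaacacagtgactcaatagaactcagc
The Gbp5 stretch held 2 matches to the first motif and 1 to the second, Serpina3g held 1 match to the first, and Cd274 and Cxcl9 held none of these letters within the stretch shown. Among all 32851 promoters of the table, 8.3% held the first motif and 3.44% the second. Of the 15 listed genes matched in the table, 8 held the first and 11 the second. A match is a description of letters and no evidence of binding.

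Type I interferon response genes, which answer interferon-alpha and -beta, did not move together. Of 18 tested, 11 were lower and 7 higher in KO, near the 55.8% of all genes that were lower. The median log2 ratio was -0.37, and 5 of the 18 were at least 2-fold lower, where 6.98% of all genes were. With a minimum of 100 UMIs the median was 0.18. Isg15, a ubiquitin-like modifier gene, had 44.6 CPM in KO cDC1 and 67.4 CPM in WT cDC1, and Oasl2, of the oligoadenylate synthetase family, had 24.5 CPM in KO and 49.5 CPM in WT. Mx1, an antiviral GTPase gene, was higher in KO with 64.7 CPM in KO and 25.8 CPM in WT, 2.5 times the WT level (interval 1.74 to 3.59). Irf7, a regulator of type I interferon production, had 65.8 CPM in KO and 58.1 CPM in WT, with an interval of the ratio that included equality.

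MHC class I presentation genes were lower in KO by a smaller factor. Of 22 genes, 21 were lower, with a median log2 ratio of -0.50 in all members and -0.50 in the core, and 5 of the 22 were at least 2-fold lower, where 6.98% of all genes were. In the core 2 of 22 were (9.09%), close to the 5.5% of all genes there. H2-K1, a classical heavy chain gene, had 886 UMIs in KO cDC1 and 4427 UMIs in WT cDC1, or 988 CPM in KO and 1588 CPM in WT, and the KO level was 0.622 times the WT level (interval 0.578 to 0.669). B2m, the light chain gene, had 1405 CPM in KO and 2169 CPM in WT. Nlrc5, the activator of MHC class I genes, had 72.5 CPM in KO and 148 CPM in WT, and the nonclassical gene H2-Q7 had 91.4 CPM in KO and 259.6 CPM in WT. Of the peptide supply, Tap1, a transporter subunit gene, had 207 CPM in KO and 263 CPM in WT, and the immunoproteasome subunit genes Psmb8 and Psmb9 had log2 ratios of -0.49 and -0.23. H2-Q and H2-T genes are near-identical in parts, so molecules may be split between them.

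MHC class II presentation genes did not differ in this way. Of 14 tested, 4 were lower and 10 higher in KO, with a median of 0.16, and in the core 10 were lower and 4 higher, with a median of -0.10. H2-Ab1, a chain of the I-A molecule, had 4567 CPM in KO and 3679 CPM in WT, and Cd74, the invariant chain, had 10430.2 CPM in KO and 9941 CPM in WT. In the core the log2 ratios were 0.10 and -0.16. Less than 0.5% of UMIs came from this list in 3 of 99 KO members and 36 of 283 WT members. All 3 of these KO cells and 31 of the WT cells had 2 to 9 rule UMIs.

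Genes of costimulation and maturation were mixed. Of 15 tested, 11 were lower (73.3%) and 4 higher in KO, where 55.8% of all genes were lower. The median was -0.75 in all members and -0.49 in the core. At least 2-fold lower were 4 of the 15 and at least 2-fold higher 3, where 6.98% and 2.78% of all genes were. In the core these were 4 and 2 of 12, where 5.5% and 2.4% of all genes were. The lowest gene, Cd274, is also in the interferon-gamma list. Cd40, the receptor for T cell help, had 11 UMIs in KO cDC1 and 105 UMIs in WT cDC1, or 12.3 CPM in KO and 37.7 CPM in WT, and the KO level was 0.326 times the WT level (interval 0.158 to 0.607). Relb and Nfkb2, which encode partners of the noncanonical NF-kB pathway, had log2 ratios of -1.18 and -1.18. Cd80 had 17.8 CPM in KO and 33 CPM in WT, while Cd86, the other ligand of CD28, had 194 CPM in KO and 166 CPM in WT with an interval of the ratio that included equality. Cd83, a maturation marker, was higher in KO with 66.9 CPM in KO and 31.9 CPM in WT (2.1 times the WT level (interval 1.48 to 2.94)). Ccl17 had 20 UMIs in KO, 75% of them in 1 cell, and 1 UMI in WT.

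The cytokine and chemokine list split in its own way. Of 14 genes tested, 10 were lower in KO and 4 higher, with a median of -1.46. At least 2-fold lower were 8, where 6.98% of all genes were. Cxcl9 and Cxcl10 were among them and are also in the interferon-gamma list. In the core 7 of 13 were at least 2-fold lower, where 5.5% of all genes were, and the median was -1.72. Tnf had 0 UMIs in KO cDC1 and 48 UMIs in WT cDC1, at least 5.15-fold lower in KO by the allowance of 3 UMIs, and the WT molecules came from 13.1% of cells. Il1b had 15 UMIs in KO cDC1 and 184 UMIs in WT cDC1, and Ccl5 65 UMIs in KO cDC1 and 604 UMIs in WT cDC1. These counts are of all members, where the neutrophil markers stood at 495 CPM in KO and 11893 CPM in WT. The log2 ratio of Ccl5 was -1.57 in all members and -0.23 in the core. Il15 and Il18, whose products support NK and T cells, were higher in KO, with 75.8 CPM in KO and 37.3 CPM in WT for Il15 and 59.1 CPM in KO and 31.2 CPM in WT for Il18. Their KO levels were 2.03 times the WT level (interval 1.47 to 2.79) and 1.89 times the WT level (interval 1.32 to 2.69). The interleukin-12 subunit genes had few UMIs, with 0 UMIs in KO and 6 UMIs of Il12a and 2 UMIs of Il12b in WT.

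**Figure D4:**
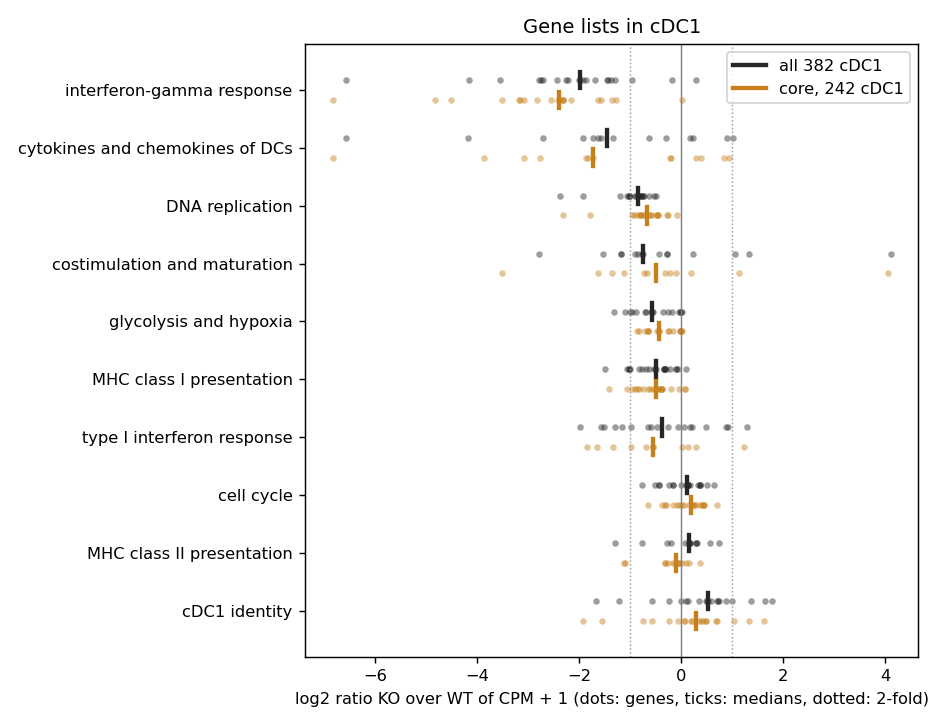
Log2 ratios KO over WT of single genes (dots) and list medians (ticks) for 10 gene lists, in all 382 cDC1 (black) and in the core of 242 (orange); dotted lines mark a 2-fold difference. The interferon-gamma response medians, -1.99 and -2.39, lie beyond the 2-fold line, and those of MHC class II and cell cycle genes lie near 0.

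Receptors and uptake held single genes past 2-fold rather than whole lists, while most glycolysis and hypoxia genes were lower in KO by a smaller factor. Il21r, the interleukin-21 receptor gene, had 4 UMIs in KO cDC1 and 80 UMIs in WT cDC1, or 4.46 CPM in KO and 28.7 CPM in WT (log2 -2.44, core -2.41), while all other barcodes had 68.7 CPM in KO and 62.7 CPM in WT. Cybb, the catalytic subunit of the phagocyte oxidase, had 147 UMIs in KO cDC1 and 1183 UMIs in WT cDC1, or 164 CPM in KO and 424 CPM in WT (log2 -1.37, core -1.39). Cd36, a scavenger receptor gene, was higher in KO with 237 CPM in KO and 96.5 CPM in WT, 2.46 times the WT level (interval 2.05 to 2.96), and so was Havcr2, which encodes TIM-3, with 183 CPM in KO and 83.9 CPM in WT, 2.18 times the WT level (interval 1.77 to 2.67). In the core these were at log2 ratios of 1.03 and 0.81. Of 17 glycolysis and hypoxia genes, 15 were lower in KO (88.2%), with a median of -0.57 and Gapdh at 487 CPM in KO and 976 CPM in WT. At least 2-fold lower were 3 of the 17 (17.6%), where 6.98% of all genes were. In the core 16 of 17 were lower, where 55.2% of all genes were, with a median of -0.43 and 0 at least 2-fold lower. Oxidative phosphorylation genes, with 12 lower and 9 higher of 21, were near the 55.8% of all genes that were lower in KO. Their median was -0.08 in all members and 0.0063 in the core. The 14 dynein and BICD genes tested had a median of 0.06 with none past 2-fold.

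The other lists had medians near that of all genes. Of all genes, 6.98% were at least 2-fold lower and 2.78% at least 2-fold higher. The list medians were -0.13 for cross-presentation and uptake (1 gene at least 2-fold lower, 2 higher, of 19), 0.16 for pattern recognition (1 lower, 0 higher, of 22), 0.17 for development regulators (1 lower, 0 higher, of 19) and 0.04 for receptors (2 lower, 0 higher, of 23). They were -0.18 for sterol synthesis (1 lower, 0 higher, of 17), -0.29 for immediate early genes (3 lower, 0 higher, of 17) and -0.21 for chaperones (none past 2-fold, of 15). The 3 immediate early genes were 17.6% of that list, above the share of all genes. In the core they were 3 of 16 (18.8%), where 5.5% of all genes were at least 2-fold lower. In the core the medians of pattern recognition, development regulators and receptors lay below 0, at -0.0784, -0.00697 and -0.13.

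The division genes gave different pictures by list. Cell cycle genes, mostly of G2 and mitosis, were 8 lower and 12 higher in KO, with a median of 0.12 and none past 2-fold. The median was -0.14 after thinning and -0.13 with equal weight per member. Mki67, the proliferation marker, had 236 UMIs in KO cDC1 and 825 UMIs in WT cDC1, or 263 CPM in KO and 296 CPM in WT, and 1 KO cell held 12.9% of the KO molecules of the list. Members with at least 3 UMIs of the list after thinning were 14 of 97 in KO (14.4%) and 56 of 279 in WT (20.1%). The log2 ratio of these shares was -0.48 (interval -1.25 to 0.30), which included equality. In the thinned core they were 12 of 77 in KO (15.6%) and 31 of 165 in WT (18.8%). That log2 ratio was -0.27 (interval -1.15 to 0.61). Over the alternative settings the log2 ratio ranged from -0.86 to 0.0121. Without thinning the shares of all members were 23.2% in KO and 42% in WT, and in thinned B cells 1.05% and 2.9%. The unthinned log2 ratio was -0.86 (interval -1.41 to -0.30) in all members and -0.63 (interval -1.20 to -0.06) in the core. These intervals left out equality, but UMIs per cell were not made equal there. Near the limit, 4 KO and 26 WT members had 3 to 4 UMIs and 12 KO and 49 WT members had 1 to 2.

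All 20 DNA replication genes were lower in KO, with a median of -0.85 and 7 at least 2-fold lower, where 6.98% of all genes were. Tk1, the thymidine kinase of S phase, had 9 UMIs in KO cDC1 and 157 UMIs in WT cDC1, and Mcm3, a subunit of the replicative helicase, had 53.5 CPM in KO and 109 CPM in WT. Pcna, the sliding clamp of DNA polymerase, had 99.2 CPM in KO and 169 CPM in WT (0.587 times the WT level (interval 0.463 to 0.738)). In the core all 20 were lower too, with a median of -0.68 and 2 of 20 at least 2-fold lower, where 5.5% of all genes were. With the members holding 3 or more cell cycle UMIs left out, the median was 0.0788.

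The 12 lowest and 12 highest genes by the naming rule were mostly outside these lists. The rule took genes with at least 30 UMIs and 10% of members positive in the higher library, at most 20% of that library's molecules from 1 cell and a ratio interval without equality. Lowest in KO were Rgs1, Tnf, Iigp1, Wfdc21, Mmp9, Cd5, Gria3, Gbp5, Ly6i, Dram1, Procr and Cd177. Rgs1, a regulator of G protein signalling, had 0 UMIs in KO cDC1 and 51 UMIs in WT cDC1, at least 5.47-fold lower in KO by the allowance of 3 UMIs. Gria3, a glutamate receptor subunit gene, had 20 UMIs in KO cDC1 and 788 UMIs in WT cDC1, or 22.3 CPM in KO and 283 CPM in WT. Its log2 ratios were -3.61 in all members, -3.06 in the core and -1.47 without the dividing members. In the WT core it was seen in 9.09% of cells and 1 cell held 29.6% of its molecules, so it missed both limits of the rule there. Other genes missed limits there too. Rgs1, Tnf, Mmp9, Cd5 and Cd177 had fewer than 30 UMIs in the WT core, with 28, 25, 24, 22 and 11. For Ly6i and Dram1, 1 WT core cell held 39.5% and 25.7% of the molecules. Of the 12, only Gbp5, Iigp1 and Procr were also among the 12 lowest when the rule was applied to the core. Procr, the protein C receptor gene, had 1 UMI in KO cDC1 and 59 UMIs in WT cDC1 (0.0527 times the WT level (interval 0.00131 to 0.305)). Dram1, a p53 target of autophagy, had 3 UMIs in KO cDC1 and 130 UMIs in WT cDC1, of which 1 and 35 were in the core. Ly6i had 10 UMIs in KO cDC1 and 386 UMIs in WT cDC1 and Cd5, a scavenger receptor of T and B-1 cells, had 0 UMIs in KO cDC1 and 36 UMIs in WT cDC1. Wfdc21, Mmp9 and Cd177 are genes of neutrophils, whose marker list was 495 CPM in KO members and 11893 CPM in WT members. Wfdc21 had 10 UMIs in KO cDC1 and 548 UMIs in WT cDC1 in all members, and 7 UMIs in KO and 73 UMIs in WT in the core.

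Among the highest in KO were Frmd5, Fgfr1, Hepacam2, Xlr, Airn, P3h2, Cd81, Kif5a, Adam22, Pdgfb and Cyp8b1. Frmd5, a gene of the FERM domain family, had 36 UMIs in KO cDC1 and 3 UMIs in WT cDC1, and was seen in 17.2% of KO cDC1 and 1.06% of WT cDC1. In cDC2 it had 136 CPM in KO and 25.2 CPM in WT, and in all other barcodes 18.2 CPM in KO and 16.9 CPM in WT. Fgfr1, a fibroblast growth factor receptor gene, had 70 UMIs in KO cDC1 and 26 UMIs in WT cDC1, or 78 CPM in KO and 9.32 CPM in WT, and the KO level was 8.37 times the WT level (interval 5.27 to 13.7). It had 88.9 CPM in KO and 47.3 CPM in WT in cDC2, 75.3 CPM in KO and 66.9 CPM in WT in plasmacytoid cells and 11 CPM in KO and 2.95 CPM in WT in all other barcodes. P3h2, a collagen prolyl hydroxylase gene, had 140 UMIs in KO cDC1 and 91 UMIs in WT cDC1 and was at 0 UMIs in cDC2 and plasmacytoid cells of both libraries, while all other barcodes had 2.68 CPM in KO and 0.375 CPM in WT. Hepacam2, a cell adhesion gene, had 101 UMIs in KO cDC1 and 51 UMIs in WT cDC1, or 113 CPM in KO and 18.3 CPM in WT, and Cd81, a tetraspanin gene, had 132 CPM in KO and 27.6 CPM in WT. In all other barcodes Hepacam2 had 10.4 CPM in KO and 1.6 CPM in WT and Cd81 29.2 CPM in KO and 21 CPM in WT. In the core the log2 ratios were 4.51 for Frmd5, 3.10 for Fgfr1, 2.45 for Hepacam2, 1.92 for P3h2 and 2.13 for Cd81. Adam22 and Kif5a did not keep their direction after thinning, where each had 1 KO and 5 WT UMIs. The macrophage marker list stood at 255 CPM in KO members and 194 CPM in WT members, and at 46.5 and 40.1 CPM in the KO and WT core.

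Set beside other cells, the lower interferon-gamma response was seen in them as well. Its median log2 ratio was -1.99 in cDC1, -1.58 in cDC2 (46 KO and 37 WT cells), -2.23 in plasmacytoid dendritic cells (150 KO and 215 WT cells) and -1.18 in all barcodes that were not cDC1. The MHC class I medians were -0.50, -0.86, -0.49 and -0.57 in the same order. Cell cycle medians differed more between the groups, with values of -0.97 in cDC2, -4.56 in plasmacytoid cells (-2.81 when genes at 0 UMIs are set at 3) and -2.02 in the rest, against 0.12 in cDC1. Few cells carried much of this list. In plasmacytoid cells it had 25 UMIs in KO and 787 UMIs in WT, 122 of the latter in 1 cell. In cDC2 1 cell held 61 of 168 UMIs in KO and 113 of 282 UMIs in WT. These groups had no limit on neutrophil and progenitor UMIs such as the core had. DNA replication genes had medians of -0.85 in cDC1, 0.36 in cDC2, -1.24 in plasmacytoid cells and -0.90 in the rest. None of these differences between cell groups was tested, since each genotype is 1 library, and nothing is called particular to cDC1. The migratory dendritic cells, 6 in KO and 29 in WT, were too few to set beside them.

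**Figure D5:**
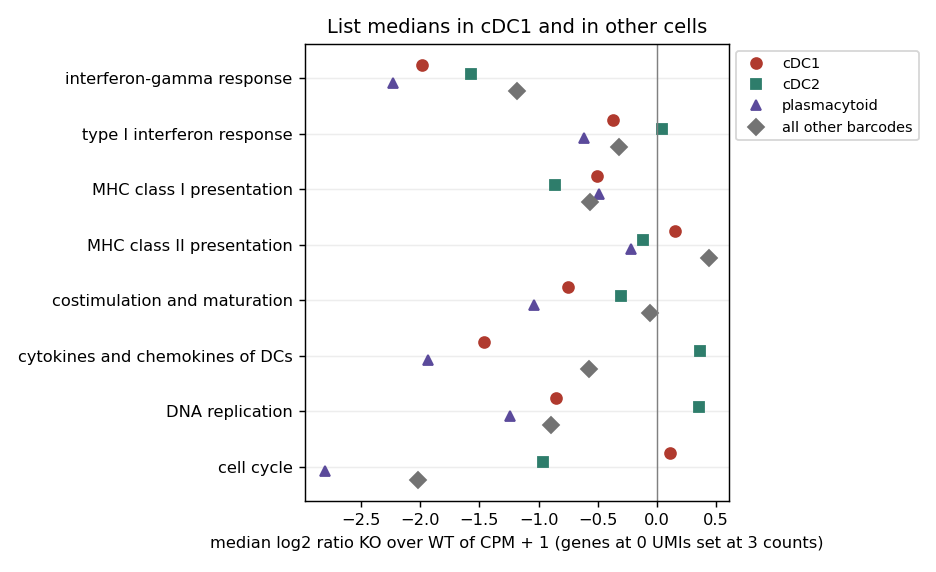
Median log2 ratio KO over WT of 8 gene lists in cDC1, in cDC2, in plasmacytoid dendritic cells and in all barcodes that are not cDC1; each point is the median over the genes tested, with genes at 0 UMIs in a library set at 3 counts. The interferon-gamma response lies left of 0 in all 4 groups, between -2.23 and -1.18, and the cell cycle median of cDC1 lies near 0.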

How the data were processed

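Each genotype gave 1 library of 10x Genomics 3' single-cell RNA. The authors deposited raw UMI counts per gene and barcode. The Cell Ranger version is 8.0.1 per the file headers and 6.0.1 per the submitters' processing notes, which also list Seurat 4.3.0 and build mm39. The matrices held 33696 genes, and the lowest barcode had 500 UMIs. The members and gene lists were chosen with earlier results of these data known.

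From the deposited counts, UMIs were summed per library over members and scaled to CPM, with log2 ratios of CPM plus 1 (numpy 2.4.6, scipy 1.17.1, pandas 2.3.3). Sums carry exact Poisson intervals, ratios exact conditional binomial intervals, shares Clopper-Pearson intervals and ratios of shares log-normal intervals. UMIs are counted molecules, and the intervals hold at this depth for counting error only. Genes with fewer than 20 summed UMIs were left out of list counts. To compare how many cells carried a gene, each cell was thinned to 1000 UMIs, which left out 2 KO and 4 WT members. Named genes were the 12 highest and 12 lowest ratios by the rule given above, without mitochondrial, ribosomal, haemoglobin, receptor segment, predicted and sex genes, rule genes and markers of other cells, and list members could also be named. A total of 2 genes, 1 of the highest and 1 of the interferon-gamma list, are not reported here by name. B cells had at least 2 Cd79a UMIs and none of Cd3e, Siglech, Xcr1 or Clec9a. cDC2 had at least 1 UMI of Flt3 and Zbtb46 and 2 of Cd209a, Clec10a and Mgl2, without Xcr1, Clec9a or Siglech, and plasmacytoid cells at least 2 of Siglech and 2 of Tcf4, Runx2 and Ccr9. Migratory cells had at least 6 of Ccr7, Fscn1 and Ccl22 and no Siglech. All groups excluded Cd3e, and all but B cells Cd79a. Doublets were marked with Scrublet (scanpy 1.11.5) and kept. Free RNA was estimated from neutrophil genes in unmarked B cells at 146 UMIs per KO cell and 210.3 per WT cell.

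Alternatives used TMM scaling (edgeR 4.0.16), size factors (DESeq2 1.42.0), other pseudocounts and count minimums, thinning, other filters on barcodes and rule genes, doublets or dividing members left out and free RNA subtracted. Those added after seeing the data were at least 10 rule UMIs, at most 1% neutrophil and progenitor UMIs, both, equal weight per member and haemoglobin out of the total. The ratio intervals were checked on simulated Poisson sums per gene, and the median intervals on simulated normal values. These simulations held no clumping of molecules in single cells, so they could not check the intervals against it. Promoters are from RefSeq (GRCm38.p6), another build than the files'.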

Additional observations from a re-analysis of the deposited data

Results flagged for a closer look

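The DNA replication list moved in opposite directions in cDC1 and cDC2. Its median log2 ratio KO over WT was -0.85 in cDC1 (20 genes, all lower in KO) and 0.36 in cDC2 (12 genes, 2 lower and 10 higher in KO). The difference was not tested, and cDC2 rested on 46 KO and 37 WT cells.

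Outside the cells described, 74 KO barcodes and 43 WT barcodes met the marker part of the cDC1 rule but failed a filter. All of them had more than 10% haemoglobin UMIs, and 36 of the KO and 28 of the WT barcodes had at least 10 UMIs of Flt3, Wdfy4 and Naaa.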

How the results depend on the processing

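The share of cDC1 turned its direction under 1 setting. Its log2 ratio of -0.89 became 1.64 when barcodes over 1% haemoglobin were left out of both members and denominator. Most KO barcodes that were not cDC1 exceeded that limit. The log2 ratio was -0.48 in the core, -0.0923 with the rule on thinned barcodes and -0.15 with barcodes of 20 or more neutrophil and progenitor UMIs left out. Counts of genes at least 2-fold lower and higher in KO (695 and 277) were 214 and 76 with a minimum of 100 UMIs, 1649 and 1152 with none, 203 and 98 with a pseudocount of 10 CPM and 344 and 144 after thinning. The interferon-gamma median moved to -1.41 with that pseudocount and otherwise lay between -2.40 and -1.58, and the costimulation median moved to -1.50 without dividing members. The DNA replication median turned to 0.0788 without them. Adam22 and Kif5a turned to -0.74 and -0.74 after thinning, and Gbp5 moved there to -0.58. Gria3 moved to -1.47 without dividing members, and Wfdc21 and Cd177 to -1.97 and -1.27 with at most 1% neutrophil and progenitor UMIs. The cause was not tested beyond each setting's own construction. Of the remaining values, 157 of the main comparisons, 397 of named genes and 238 of other lists stayed within the interval of the value in all members, for lists an interval over genes, or within 1.5 times a count. Of these, 7 of the main comparisons (MHC class II, cell cycle, type I interferon and dividing share) and 19 of other lists changed sign, all from values whose interval included 0. In all, 38 of named genes and 8 of other lists moved in size. TMM and DESeq2 scaling shifted the median of all genes by 0.0167 and 0.0148. No paired analysis was possible because each genotype has 1 library, and for the same reason no library could be left out.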
